A study of Mus musculus with 6 samples.

Results

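The 10 apolipoprotein genes *Apob*, *Apoa1*, *Apoa2*, *Apoa4*, *Apoa5*, *Apoc1*, *Apoc2*, *Apoc3*, *Apoc4* and *Apoe* were followed in the livers of wild-type (WT) and SIRT7-/- mice by single-cell RNA sequencing. They were chosen by name and are 10 of the 16623 genes in the deposited table. Apolipoproteins are the protein parts of the particles that carry triglyceride and cholesterol in blood. The hepatocyte makes most of them: apolipoprotein B forms the frame of very-low-density lipoprotein, apolipoproteins A-I and A-II that of high-density lipoprotein, and the smaller apolipoproteins of the C group, A-IV, A-V and E move between particles, where they govern lipases and uptake by receptors. Macrophages are known to make apolipoprotein E as well, and apolipoprotein A-IV is known to be made in the liver when fat is stored there.

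The data came from the livers of 3 WT and 3 SIRT7-/- mice, all 5 to 6 months old, with no strain, sex or treatment given in the labels. SIRT7 is a NAD-dependent deacylase of the sirtuin family, and SIRT7-/- mice lack it in the whole animal, so that a difference in a cell class cannot be assigned to SIRT7 in that class. Hepatocytes and nonparenchymal cells were released with collagenase and mixed in equal numbers for the 10x Genomics Chromium platform, which counts each RNA molecule once at its 3' end by a unique molecular identifier (UMI). Levels are given as UMIs per 10000 of a cell (CP10K), averaged over the cells of a class in a mouse. Because molecules are counted at 1 end, no correction for gene length was made, and levels of different genes are compared as UMIs.

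The libraries held 552 to 5609 cells and 2511947 to 11069411 UMIs per mouse. *Sirt7*, the targeted gene, had 0.512 to 0.718 CP10K over all cells in the WT mice and 0.0814 to 0.139 CP10K in the SIRT7-/- mice, and the genotypes did not overlap. The deposited table names no cell types, so cells were clustered with the apolipoprotein genes left out and named after their markers, with "-like" added. There were 1746 hepatocyte 1-like, 1217 hepatocyte 2-like, 3709 macrophage-like, 1964 T-like, 1495 dendritic-like, 535 endothelial-like, 439 plasma B-like and 164 B-like cells. Of 10 pericentral landmark genes, 6 had the higher mean in hepatocyte 1-like cells, and of 10 periportal landmark genes 8 had the higher mean in hepatocyte 2-like cells. Only 4 and 2 of these were on that side in all 6 mice, so the classes are called by their numbers and not by a zone. The classes also differed in nuclear RNA: *Malat1*, *Neat1* and *Meg3* together summed to 0.669 to 18.0 CP10K in hepatocyte 1-like and to 332 to 618 CP10K in hepatocyte 2-like cells. Of the cells, 26 shared a barcode with a cell of another library.

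The genes lie in 2 clusters and at 2 single sites of the mouse genome (GRCm38). *Apoc2* (chromosome 7, 19671579 to 19677941), *Apoc4* (19678083 to 19681479), *Apoc1* (19689481 to 19692660) and *Apoe* (19696109 to 19699188) follow each other on the minus strand within 27610 bases. *Apoa1* (chromosome 9, 46228580 to 46230466), *Apoc3* (46232933 to 46235636, minus strand), *Apoa4* (46240696 to 46243459) and *Apoa5* (46268633 to 46271919) lie within 43340 bases. *Apoa2* (chromosome 1, 171225054 to 171226379) and *Apob* (chromosome 12, 7977648 to 8016835) lie alone. All 10 are annotated as protein coding. RefSeq promoter windows, from 250 bases before to 50 bases after a start, were found for 8 of the 10. Those of 3 neighbors on chromosome 9 are shown because their transcripts differ most in pattern: *Apoa1* is abundant, *Apoa4* is low and differs most by genotype, and *Apoa5* differs most between the hepatocyte classes. Capitals mark matches, on either strand, to the DR1 direct repeat of nuclear receptors, its unit AGGTCA, CAAAGTCCA, the E-box CACGTG, the box TATAAA and the cyclic AMP element core TGACGT.
Apoa1 (chr9:46228380-46228679, plus strand): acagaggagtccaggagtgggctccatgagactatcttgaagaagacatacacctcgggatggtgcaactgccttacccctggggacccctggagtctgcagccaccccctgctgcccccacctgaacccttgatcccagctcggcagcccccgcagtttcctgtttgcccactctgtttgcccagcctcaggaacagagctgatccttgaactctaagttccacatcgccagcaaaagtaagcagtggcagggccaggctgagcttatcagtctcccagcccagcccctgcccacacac
Apoa4 (chr9:46240594-46240893, plus strand): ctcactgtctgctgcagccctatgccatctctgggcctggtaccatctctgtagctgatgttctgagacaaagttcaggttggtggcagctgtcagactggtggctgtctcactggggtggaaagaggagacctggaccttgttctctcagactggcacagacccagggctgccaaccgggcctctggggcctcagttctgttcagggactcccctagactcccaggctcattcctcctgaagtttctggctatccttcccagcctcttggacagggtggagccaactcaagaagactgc
Apoa5 (chr9:46268358-46268657, plus strand): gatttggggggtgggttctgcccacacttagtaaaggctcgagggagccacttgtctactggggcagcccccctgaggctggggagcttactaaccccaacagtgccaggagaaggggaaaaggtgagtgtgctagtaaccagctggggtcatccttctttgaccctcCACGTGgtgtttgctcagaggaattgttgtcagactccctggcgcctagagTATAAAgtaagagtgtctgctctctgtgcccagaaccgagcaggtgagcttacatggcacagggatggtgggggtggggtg
The *Apoa5* window held an E-box, as did 7.15% of the 32851 windows in the table, and a TATAAA, as did 13.6%. The *Apoa1* and *Apoa4* windows held none of the 6. Their RefSeq starts lie 50 and 148 bases inside the gene positions given above, so these windows reach less than 250 bases before those positions. Of all windows, 16.3% held AGGTCA, 7.51% TGACGT, 0.475% CAAAGTCCA and 0.381% the DR1 repeat, whose matches can overlap those of AGGTCA. These matches describe the letters in the windows only.

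In hepatocyte-like cells the tested apolipoprotein genes ranged from 3.52 to 185 CP10K. Together the 10 genes made up 5.09% to 7.67% of the UMIs of hepatocyte 1-like cells in WT mice and 3.75% to 6.17% in SIRT7-/- mice. Their share in hepatocyte 2-like cells was 2.24% to 5.17% in WT and 1.70% to 2.71% in SIRT7-/- mice. *Apoc1*, which restrains lipoprotein uptake and lipases, and *Apoa2* led in hepatocyte 1-like cells with means over the 6 mice of 185 and 168 CP10K. *Apoe*, a ligand for the uptake of lipoproteins, had 75.9 CP10K, and *Apoc3*, the inhibitor of lipoprotein lipase and of remnant uptake, had 67.1 CP10K. *Apoc4* and *Apoa1* followed with 21.9 and 19.9 CP10K, then *Apob* with 4.88, *Apoa4* with 3.87 and *Apoa5* with 3.52 CP10K. Among hepatocyte 2-like cells *Apoa2* came first with 84.0 CP10K, ahead of *Apoc1* with 68.0, *Apoe* with 50.1, *Apoc3* with 38.3 and *Apoa1* with 31.4 CP10K.

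*Apoc2*, the activator of lipoprotein lipase, stood out by its near absence. It had 0 UMIs in hepatocyte 2-like cells of every mouse and no more than 2 UMIs in hepatocyte 1-like cells of any mouse, below the floor of 0.05 CP10K for testing, so that 9 of the 10 genes were tested. The GENCODE annotation of this build holds a second protein-coding gene on the same strand, Gm44805 (chromosome 7, 19671584 to 19681423), which covers 79.5% of the 813 exon bases of *Apoc2* and 4.69% of the 2537 exon bases of *Apoc4*. Gm44805 is not a column of the table, and its part in the low counts was not tested. Genes on the opposite strand overlap exons of *Apoa4* and *Apoa5*, and whether the counting used strand is not given in the sources used here.

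**Figure D1:**
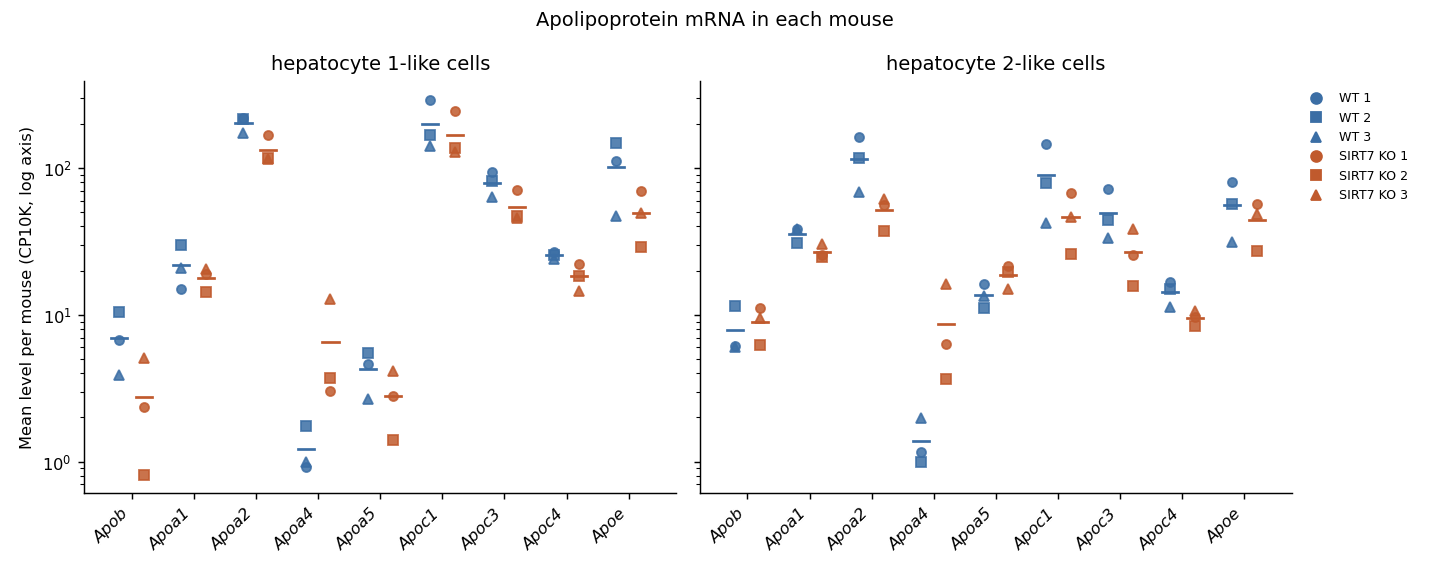
Mean level (CP10K, log axis) of the 9 tested apolipoprotein genes in hepatocyte 1-like and hepatocyte 2-like cells, with 1 point per mouse and a bar at the mean of each genotype (n = 3; SIRT7 KO in the key is SIRT7-/-). *Apoa4* is the gene in which the 3 SIRT7-/- mice lie above the 3 WT mice in both classes, and *Apoa2* and *Apoc4* are those in which they lie below in both.

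The hepatocyte classes differed in which apolipoproteins they carried. This is given as a description, since the classes were cut from the same cells. *Apoa5*, which promotes lipolysis of triglyceride-rich particles, had 3.52 CP10K in hepatocyte 1-like and 16.2 CP10K in hepatocyte 2-like cells, a ratio of 4.60, and was higher in hepatocyte 2-like cells in 6 of 6 mice. *Apoa1* was also higher there in 6 of 6 mice, with a ratio of 1.58, and *Apob* in 5 of 6 mice, with a ratio of 1.73. *Apoc1*, *Apoa2*, *Apoc3*, *Apoc4* and *Apoe* were higher in hepatocyte 1-like cells in 6 of 6 mice, with hepatocyte 2-like levels at 0.368, 0.499, 0.570, 0.546 and 0.660 of theirs. *Apoa4* showed no common order, being higher in hepatocyte 2-like cells in 4 mice and in hepatocyte 1-like cells in 2. The share of nuclear RNA given above differed between the same classes, and its part in these ratios was not tested.

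**Figure D2:**
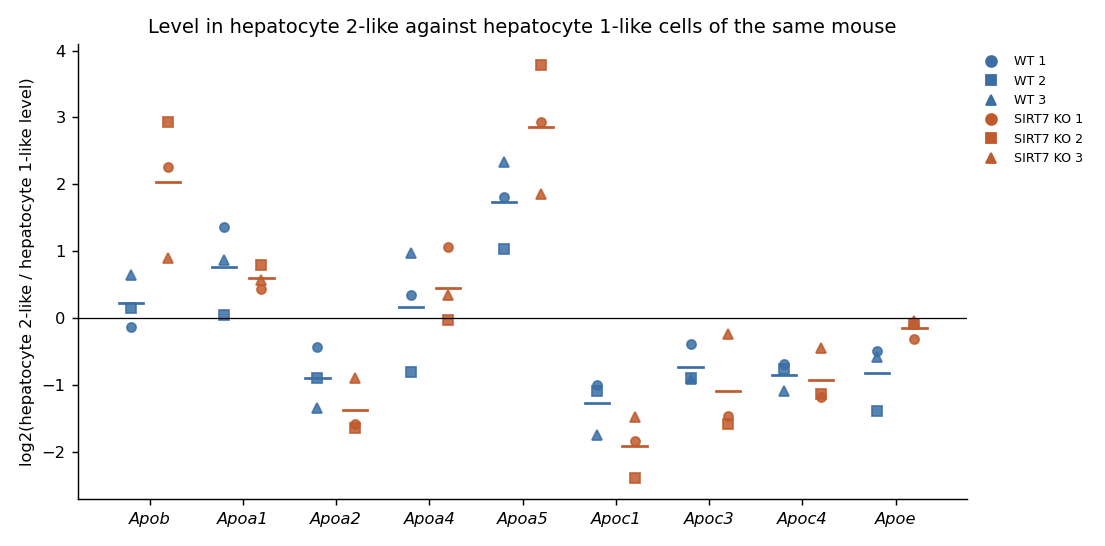
Log2 of the level in hepatocyte 2-like over that in hepatocyte 1-like cells of the same mouse, with 1 point per mouse and a bar at the genotype mean (n = 3). *Apoa1* and *Apoa5* lie above 0 and *Apoa2*, *Apoc1*, *Apoc3*, *Apoc4* and *Apoe* lie below 0 in all 6 mice, while *Apob* and *Apoa4* lie on both sides of 0.

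The first comparison asked which apolipoprotein transcripts differed between SIRT7-/- and WT mice. *Apoa4* was the member past the threshold, and this was in hepatocyte 2-like cells. It had 1.17, 0.998 and 1.97 CP10K in WT mice 1, 2 and 3, against 6.29, 3.65 and 16.2 CP10K in SIRT7-/- mice 1, 2 and 3. These values rest on 92, 32 and 16 *Apoa4* UMIs in the WT and 400, 24 and 1792 in the SIRT7-/- mice. WT mouse 3 had 47 cells of this class and SIRT7-/- mouse 2 had 59. The genotypes did not overlap, and SIRT7-/- mouse 3 was far above the others. The log2 difference was 2.40 (standard error, SE, 0.470, adjusted p = 0.0291 in limma), 1 of 9 members called and 3 at an unadjusted p under 0.05. In this class 0.252% of 10314 genes were called, 0.0776% as higher, 10.1% had an unadjusted p under 0.05, and the median log2 difference was 0.20. The call was lost without WT mouse 1 (log2 difference 2.32, limma adjusted p = 0.208), without WT mouse 2 (2.21, limma adjusted p = 0.140) and without WT mouse 3 (2.68, limma adjusted p = 0.0876). It held without SIRT7-/- mouse 3, with a log2 difference of 1.82 (limma adjusted p = 0.0187), and over 21 alternatives the difference lay between 1.67 and 2.89, past the threshold in 10.

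In hepatocyte 1-like cells *Apoa4* had 0.924, 1.74 and 1.0 CP10K in the WT mice, against 3.02, 3.71 and 12.8 CP10K in the SIRT7-/- mice. Here too the genotypes did not overlap and SIRT7-/- mouse 3 was the highest. The log2 difference was 2.11 (SE 0.515, adjusted p = 0.156 in limma), so that 0 of 9 members were called (4 at an unadjusted p under 0.05, voom called 5, with 502 of all 8516 genes), against 0.481% of all 8516 genes and 10.4% at an unadjusted p under 0.05. It passed without SIRT7-/- mouse 1 (2.51, limma adjusted p = 0.0407), where *Apoa2* passed as well (-0.80, limma adjusted p = 0.0343), and without SIRT7-/- mouse 3 (1.47, limma adjusted p = 0.0305). Over all genes, 44 of 8529 and 162 of 8563 were called in these fits, against 41 of 8516 with all mice. Subtracting the hepatocyte 1-like from the hepatocyte 2-like difference gave 0.29 (SE 0.469, adjusted p = 0.843 in limma), so no difference between the classes was shown. Every SIRT7-/- mouse lay above every WT mouse in 7.70% of the genes of hepatocyte 1-like and 12.6% of those of hepatocyte 2-like cells.

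The *Apoa4* difference was also seen in how many cells held the transcript. With every cell thinned to 500 UMIs, which lost no cell, the expected share of hepatocyte 2-like cells with an *Apoa4* UMI was 5.33%, 4.58% and 8.62% in the WT mice and 25.6%, 15.6% and 53.0% in the SIRT7-/- mice. Without thinning the shares were 19.6%, 18.6% and 19.1% against 52.9%, 28.8% and 97.0%. T-like cells, which should lack the gene, had thinned shares of 0.595% to 1.96% in WT and 3.18% to 17.7% in SIRT7-/- mice, and their share followed the same order between the genotypes. The median UMI count of hepatocyte 2-like cells was 2404 in WT and 1936.5 in SIRT7-/- mice, and that of T-like cells 2342 and 1380. These medians pool the cells of all mice of a genotype. Over all cells of a mouse, the median was 3875 UMIs in SIRT7-/- mouse 3, which had the highest shares, and 1630 to 2199 in the other mice.

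Among the frame proteins, *Apoa2* had 220, 217 and 174 CP10K in hepatocyte 1-like cells of the WT mice, against 168, 117 and 115 CP10K in the SIRT7-/- mice. Its log2 difference was -0.63 (SE 0.173, adjusted p = 0.125 in limma). Its hepatocyte 2-like levels were 163, 117 and 68.3 CP10K against 56.1, 37.4 and 61.9 CP10K, with a log2 difference of -1.11 (SE 0.409, adjusted p = 0.363 in limma). The SIRT7-/- mice lay below the WT mice in both classes without passing the threshold. *Apoa1*, the main protein of high-density lipoprotein, differed by -0.25 and -0.41, and its SIRT7-/- mice (24.9 to 30.5 CP10K) lay below its WT mice (31.0 to 38.3 CP10K) in hepatocyte 2-like cells only.

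*Apob* gave the widest gap between the hepatocyte classes. In hepatocyte 1-like cells it had 6.76, 10.4 and 3.87 CP10K in WT and 2.34, 0.815 and 5.12 CP10K in SIRT7-/- mice, which overlapped, with a log2 difference of -1.57 (SE 0.754, adjusted p = 0.543 in limma). Leaving out SIRT7-/- mouse 2 gave -0.89, and leaving out SIRT7-/- mouse 3 gave -2.18. Hepatocyte 2-like cells had 6.16, 11.5 and 6.07 CP10K against 11.2, 6.24 and 9.56 CP10K, with a log2 difference of 0.21 (SE 0.395, adjusted p = 0.884 in limma). The difference between the classes was 1.78 (SE 0.470, adjusted p = 0.192 in limma), against a median of 0.29 over all genes, and 1.35 and 2.33 without the same mice. In this comparison 0 of 9 members passed (2 at an unadjusted p under 0.05), and 0.121% of all genes did, with 12.1% at an unadjusted p under 0.05. *Apoa5* pointed the same way, with log2 differences of -0.67 and 0.45 and a class difference of 1.11 (SE 0.475, adjusted p = 0.377 in limma).

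*Apoc1*, *Apoc3*, *Apoc4* and *Apoe* had negative log2 differences in both classes and none passed. *Apoc3* had 93.8, 81.9 and 63.2 CP10K in hepatocyte 1-like cells of the WT mice, against 71.1, 47.2 and 45.6 CP10K in the SIRT7-/- mice, a log2 difference of -0.55 (SE 0.202, adjusted p = 0.311 in limma), and -0.92 in hepatocyte 2-like cells. *Apoc4*, a minor protein of triglyceride-rich particles, had 24.1 to 26.9 CP10K in WT and 14.5 to 22.1 CP10K in SIRT7-/- hepatocyte 1-like cells, without overlap, a log2 difference of -0.50 (limma adjusted p = 0.380). Hepatocyte 2-like levels were 11.3 to 16.7 against 8.35 to 10.6 CP10K, also without overlap, a log2 difference of -0.57 (limma adjusted p = 0.624). *Apoc1* differed by -0.23 and -0.86 and *Apoe* by -0.98 and -0.31, with overlapping genotypes in each case. Every SIRT7-/- mouse lay below every WT mouse in 8.84% of all genes in hepatocyte 1-like and in 3.90% in hepatocyte 2-like cells, against *Apoa2* and *Apoc4* in the first and *Apoa1*, *Apoa2* and *Apoc4* in the second.

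Of the 9 members, 8 had a negative log2 difference in hepatocyte 1-like cells, as had 55.6% of all genes, with a median of -0.55 against -0.09 over all genes. Among hepatocyte 2-like cells 6 were negative, as were 38.1% of all genes, with a median of -0.41 against 0.20. Taking both hepatocyte classes as 1, 7 of 9 were negative, as were 36.6% of all genes, the median was -0.55 against 0.16, and 0 of 9 passed (1 at an unadjusted p under 0.05) while 0.111% of all genes did, with 7.56% at an unadjusted p under 0.05. Without SIRT7-/- mouse 2, *Apoa4* passed in that comparison, where 24 of 9892 genes were called. Other hepatocyte transcripts moved beside them. The 13 genes of a list of other proteins secreted by hepatocytes all had negative log2 differences in both classes, with medians of -1.04 and -1.25, and 1 of them, *Serpina1a*, passed in each. Their summed level in hepatocyte 1-like cells was 263 to 585 CP10K in WT and 147 to 308 CP10K in SIRT7-/- mice. Hemoglobin RNA summed to 104 CP10K in hepatocyte 1-like cells of WT mouse 1 and to 0 to 6.30 CP10K in those of the other 5 mice. The part of these lists in the member differences was not tested.

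**Figure D3:**
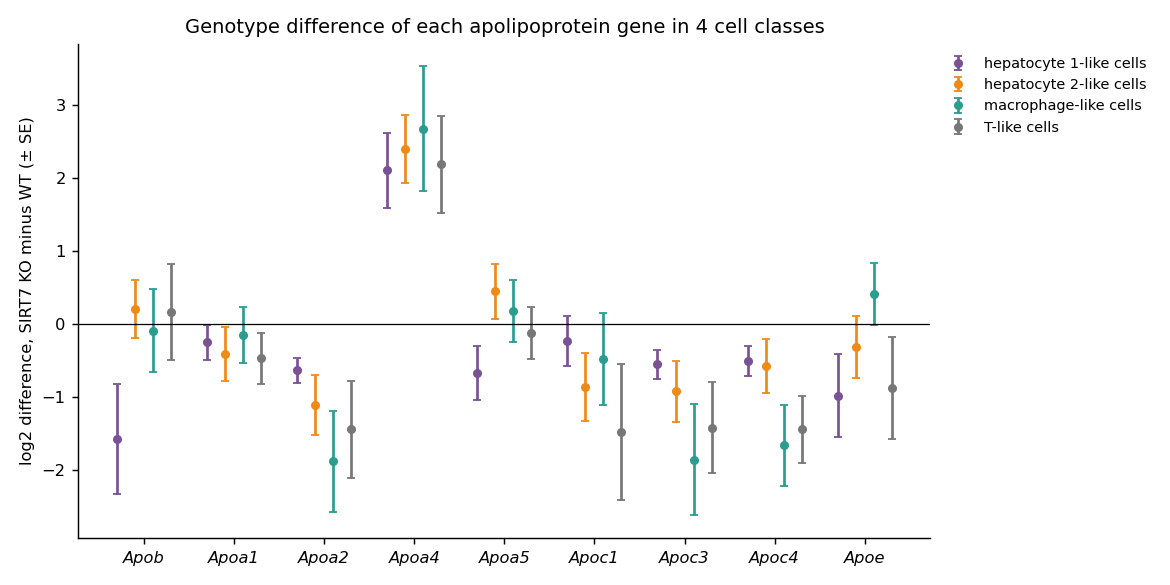
Log2 difference, SIRT7-/- minus WT, with its standard error, of 9 apolipoprotein genes in hepatocyte 1-like, hepatocyte 2-like, macrophage-like and T-like cells (n = 3 mice per genotype). *Apoa4* lies between 2.11 and 2.68 in the 4 classes, *Apoa1*, *Apoa2*, *Apoc1*, *Apoc3* and *Apoc4* lie below 0 in each, and only *Apoa4* in hepatocyte 2-like cells passed the threshold.

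Apolipoprotein RNA was also counted in cells other than hepatocytes. Free RNA of broken cells can enter any droplet, and RNA of 1 source keeps its genes in a fixed ratio. Each member was therefore set against the 13 other secreted hepatocyte genes in each class and mouse. In T-like cells *Apoa2* had 44.1, 49.6 and 60.6 UMIs per 100 UMIs of that list in the WT mice and 54.4, 60.2 and 23.5 in the SIRT7-/- mice. In hepatocyte 1-like cells of the same mice it had 44.9, 33.7 and 51.5 and 62.2, 80.7 and 40.3. Dividing these by the T-like values gave 1.02, 0.679 and 0.85 in the WT mice and 1.14, 1.34 and 1.71 in the SIRT7-/- mice. In dendritic-like cells the quotient was 0.848 to 1.05. Some members varied more between hepatocytes and T-like cells and some less. The hepatocyte 1-like quotient was 0.483 to 2.89 for *Apoc1*, 0.230 to 1.32 for *Apoa5* and 0.254 to 1.75 for *Apob*. It was 0.68 to 1.21 for *Apoa1* and 0.507 to 1.12 for *Apoe*. The hepatocyte 2-like quotient was 3.37 to 8.42 for *Apoa5* and 1.84 to 2.62 for *Apoa1*. For *Apoa2* and *Apoe* it was 0.541 to 1.14 and 0.723 to 1.13. Levels of *Apoa2* in T-like cells were 44.7 to 64.3 CP10K in WT and 8.48 to 46.1 CP10K in SIRT7-/- mice. The part of free RNA in these levels was not tested.

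*Apoe* lay above its T-like ratio in macrophage-like and endothelial-like cells of every mouse compared. It had 70.7, 42.2 and 52.6 CP10K in macrophage-like cells of the WT mice, against 147, 49.2 and 51.3 CP10K in the SIRT7-/- mice. SIRT7-/- mouse 1 was far above every other mouse, and the rest overlapped. Against the secreted list *Apoe* had 85.1 to 151 UMIs per 100 in WT and 96.6 to 589 in SIRT7-/- mice, which was 3.62 to 15.5 times the ratio in T-like cells of the same mouse and above it in 6 of 6 mice. In endothelial-like cells it was 1.61 to 5.59 times that ratio in the 5 mice with 20 or more cells. In dendritic-like cells it was 0.902 to 1.26 times. By mean level the classes ran from hepatocyte 1-like (75.9 CP10K) through macrophage-like (68.9), endothelial-like (52.3) and hepatocyte 2-like (50.1) to B-like (23.9), T-like (19.5), dendritic-like (14.2) and plasma B-like cells (6.84). The mice of the first 4 classes overlapped in level. *Apoc1* in macrophage-like cells was 0.971, 1.12 and 0.946 times its T-like ratio in WT mice 1, 2 and 3 and 1.82, 3.02 and 2.39 times in the SIRT7-/- mice, which did not overlap. The *Apoc1* quotient in hepatocyte 1-like cells did not overlap either, at 1.0, 0.483 and 0.772 against 1.15, 1.47 and 2.89. In that class the quotients of *Apoa2*, *Apoc3* and *Apoc4* were also higher in SIRT7-/- mice without overlap, and those of *Apob* and *Apoe* lower. In hepatocyte 2-like cells *Apoc1* overlapped, while *Apoc4* and *Apoe* were higher without overlap. The T-like ratio that divides the *Apoc1* values was 16.0 per 100 in SIRT7-/- mouse 3 and 48.0 to 77.4 in the other mice. These quotients were not tested between the genotypes, and the share of all genes without overlap was not worked out for them.

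**Figure D4:**
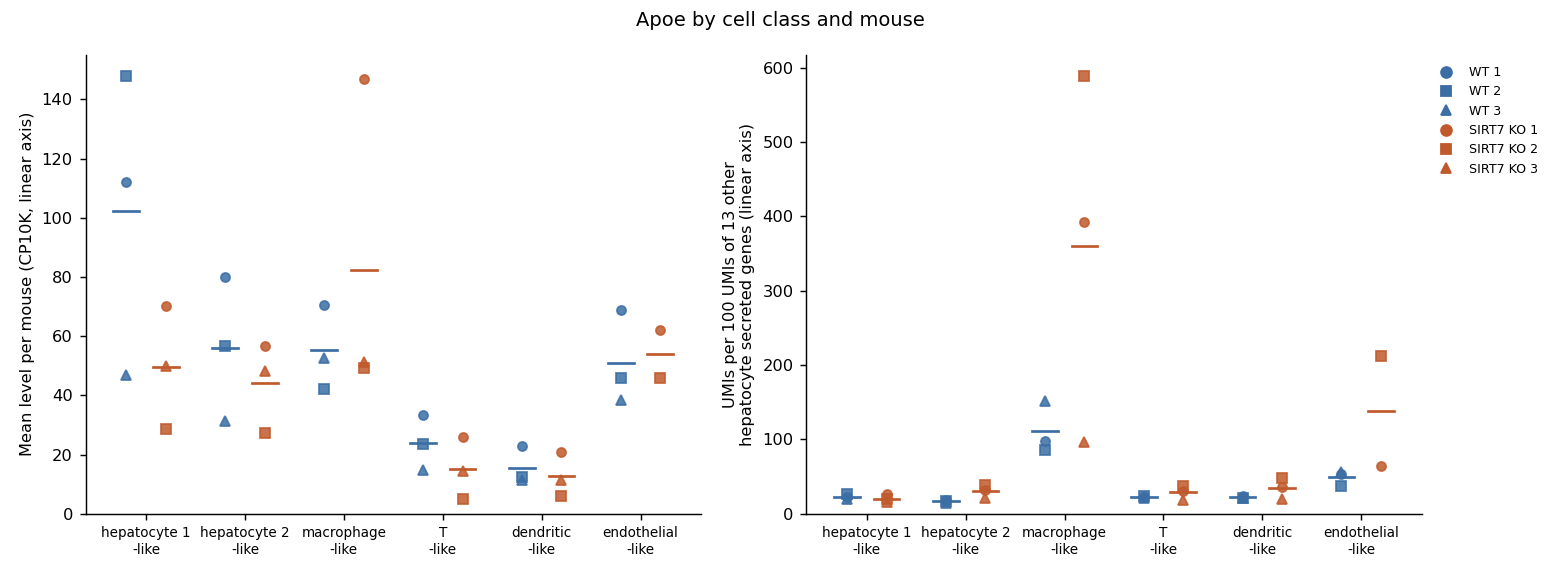
*Apoe* in 6 cell classes, as mean CP10K per mouse (left) and as UMIs per 100 UMIs of 13 other secreted hepatocyte genes (right), with 1 point per mouse and a bar at each genotype mean; endothelial-like cells have 2 SIRT7-/- mice. Macrophage-like cells had 85.1 to 589 per 100 and T-like cells 18.7 to 37.9.

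In macrophage-like cells 0 of 9 members passed between the genotypes (4 at an unadjusted p under 0.05, voom called 0), against 0.201% of 9948 genes and 10.7% at an unadjusted p under 0.05. *Apoe* had a log2 difference of 0.41 (SE 0.425, adjusted p = 0.778 in limma) and -0.10 without SIRT7-/- mouse 1. *Apoa4* had 0.178, 0 and 0.255 CP10K in the WT mice, against 0.654, 0.381 and 2.94 CP10K in the SIRT7-/- mice, without overlap, a log2 difference of 2.68 (SE 0.851, adjusted p = 0.314 in limma). The WT values rest on 4, 0 and 13 UMIs, and the difference ranged from 0.61 (mean of ln values) to 3.53 (pseudocount of 0.01) over 21 alternatives. Every SIRT7-/- mouse lay above every WT mouse in 7.20% of all genes and below in 9.88%, as *Apoa2* and *Apoc4* did. *Apoa2*, *Apoc3* and *Apoc4* had log2 differences of -1.88, -1.86 and -1.66 there (limma adjusted p = 0.423, 0.467 and 0.339), and the 13 secreted genes had a median of -1.27. The hemoglobin genes reached 4.14 CP10K in SIRT7-/- mouse 1, against 0 to 0.726 CP10K elsewhere, and the 8 macrophage markers summed to 187 to 254 CP10K.

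*Apoa4* was also set against the other hepatocyte RNA. Per 100 UMIs of the secreted list, hepatocyte 2-like cells held 0.263, 0.347 and 1.04 *Apoa4* UMIs in the WT mice and 3.62, 4.68 and 6.92 in the SIRT7-/- mice. T-like cells held 0.268, 0.152 and 0.567 against 1.15, 4.30 and 5.13, and hepatocyte 1-like cells 0.190, 0.332 and 0.50 against 1.21, 2.70 and 3.74. In each of these classes and in macrophage-like and dendritic-like cells the genotypes did not overlap (p = 0.1 by a two-sided exact permutation test, which is the lowest possible p with 3 mice per genotype). Divided by the T-like value of the same mouse, the *Apoa4* ratio of hepatocyte 2-like cells was 0.981 to 2.28 in WT and 1.09 to 3.15 in SIRT7-/- mice. It was 0.709 to 2.18 against 0.628 to 1.05 in hepatocyte 1-like and 0 to 1.07 against 0.905 to 1.37 in macrophage-like cells. The genotypes thus overlapped in each of these classes after the division. In B-like cells the ratio to the secreted list overlapped without it. The secreted list itself was lower in SIRT7-/- mice, which raises such a ratio. *Apob* per 100 UMIs of the list was 1.47 to 3.54 in WT and 4.09 to 8.97 in SIRT7-/- hepatocyte 2-like cells, and 1.34 to 1.69 against 0.601 to 1.17 in hepatocyte 1-like cells, again without overlap and in opposite directions. *Apob* was also higher without overlap in T-like (0.805 to 1.53 against 1.88 to 3.59), dendritic-like (0.686 to 1.46 against 1.86 to 2.74) and macrophage-like cells (0.85 to 1.32 against 1.65 to 2.42). So was *Apoe* in hepatocyte 2-like cells, at 14.9 to 18.4 against 21.2 to 38.0. The share of all genes without overlap on this scale was not worked out.

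**Figure D5:**
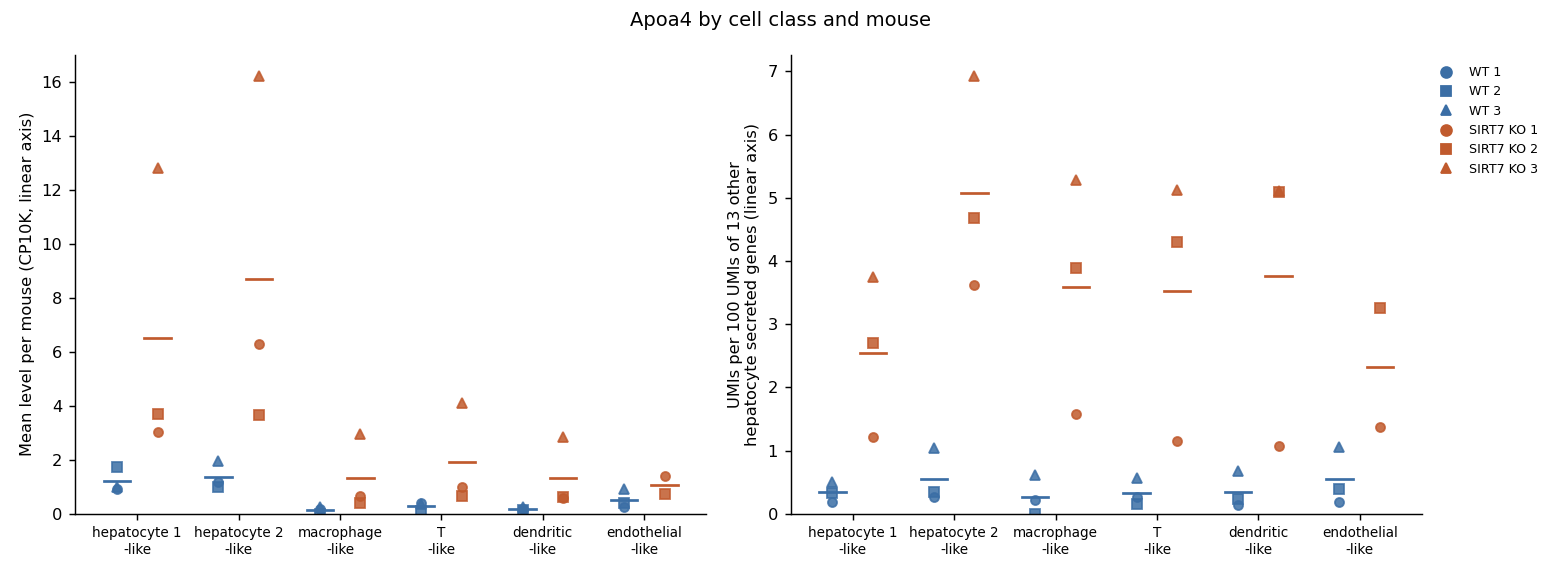
*Apoa4* in 6 cell classes, as mean CP10K per mouse (left) and as UMIs per 100 UMIs of 13 other secreted hepatocyte genes (right), with 1 point per mouse and a bar at each genotype mean; endothelial-like cells have 2 SIRT7-/- mice. In the 5 classes with 3 mice per genotype the SIRT7-/- mice lie above the WT mice on both scales.

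No member passed in the other classes. In T-like cells *Apoa4* had 0.119 to 0.397 CP10K in WT and 0.643 to 4.12 CP10K in SIRT7-/- mice, a log2 difference of 2.19 (limma adjusted p = 0.472), and in dendritic-like cells 0.154 to 0.260 against 0.568 to 2.83 CP10K, a log2 difference of 2.15 (limma adjusted p = 0.286). The share of all genes called was 0.130% in T-like, 0.0411% in dendritic-like, 0.253% in endothelial-like, 0.0782% in plasma B-like and 0.0215% in B-like cells. Of the 9 members, 2, 2, 2, 1 and 1 had an unadjusted p under 0.05 in these classes, against 7.24%, 6.07%, 7.17%, 6.53% and 3.79% of all genes. *Apoa4* was the member without overlap in T-like and dendritic-like cells, where every SIRT7-/- mouse lay above every WT mouse in 5.13% and 4.11% of all genes and below in 6.65% and 7.01%. These counts turned on single mice. Without SIRT7-/- mouse 1, *Apoa2*, *Apoc3* and *Apoc4* passed in T-like cells, *Apoa4* and *Apoc4* in dendritic-like cells and *Apoa2*, *Apob*, *Apoc3* and *Apoc4* in endothelial-like cells. Over all genes, 142 of 9981, 140 of 9683 and 268 of 10637 were then called. Without WT mouse 3, *Apoc4* passed in endothelial-like cells, where 72 of 10648 genes were called. Plasma B-like cells came from 2 mice per genotype, so that leaving out a mouse left a lone mouse: without SIRT7-/- mouse 1 *Apoa2* passed among 9 of 7600 genes called, and without WT mouse 3, which left a WT mouse with 0 *Apoa4* UMIs, *Apoa4* passed among 706 of 7524. Endothelial-like cells without SIRT7-/- mouse 1 also rest on a lone SIRT7-/- mouse, and in each such fit the lone mouse is assumed to vary like the other group.

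A second comparison asked whether the transcripts followed liver zones. Hepatocyte-like cells of each mouse were ranked by 10 periportal minus 10 pericentral landmark genes, none of them an apolipoprotein, and the 986 most central and the 986 most portal cells were compared within mice. Each set is a range of a score and not a cell type: 757 of 2963 cells lay within 0.1 of a limit, hepatocyte 1-like cells made up 74.3% of the central and 38.9% of the portal set. *Apoa2* had 156 CP10K in the central and 112 CP10K in the portal set and was lower in the portal set in 6 of 6 mice, with a log2 difference of -0.57 (SE 0.165, adjusted p = 0.182 in limma). *Apoc1* had 158 and 111 CP10K, a log2 difference of -0.56 (SE 0.150, adjusted p = 0.165 in limma), lower in 5 of 6 mice. From central to portal it went from 239 to 215, 158 to 145 and 96.2 to 97.4 CP10K in WT mice 1, 2 and 3. In SIRT7-/- mice 1, 2 and 3 it went from 231 to 89.3, 145 to 68.9 and 77.9 to 50.3 CP10K. *Apoa5* had 7.02 and 10.9 CP10K, a log2 difference of 0.64 (SE 0.236, adjusted p = 0.261 in limma), higher in 4 of 6 mice. It went from 8.12 to 11.5, 6.89 to 6.28 and 9.87 to 4.93 CP10K in the WT mice. The SIRT7-/- mice had 5.44 to 17.1, 2.21 to 9.53 and 9.61 to 15.8 CP10K. *Apoc1* thus fell more from central to portal in each SIRT7-/- mouse than in any WT mouse. *Apoa5* rose in each SIRT7-/- mouse, while it rose in WT mouse 1 and fell in WT mice 2 and 3. These genotype patterns were not tested. *Apoa4* differed by 0.19 and *Apoa1* by -0.01. In all, 0 of 9 members passed (3 at an unadjusted p under 0.05), against 0.476% of 9865 genes and 14.3% at an unadjusted p under 0.05, and the median over all genes was 0.14. Without WT mouse 3, *Apoa5* and *Apoc1* were among the 1021 of 9808 genes called.

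Other genes of lipoprotein metabolism gave few calls. None of 5 other apolipoproteins tested, 19 genes of assembly and remodelling, 9 receptors and 14 regulators passed between the genotypes in either hepatocyte class by limma. At an unadjusted p under 0.05 there were 4, 4, 2 and 2 in hepatocyte 1-like and 0, 3, 0 and 3 in hepatocyte 2-like cells. Of all genes, 10.4% and 10.1% were under it in these classes. All 5 other apolipoproteins had negative log2 differences in both classes. In hepatocyte 1-like cells these were widest for *Apon* (-1.92), *Apoh* (-1.31) and *Clu* (-1.16), in hepatocyte 2-like cells for *Apof* (-0.90), *Apoh* (-0.77) and *Apom* (-0.65). The levels of *Apon* were 3.04 to 6.20 CP10K in WT and 0.512 to 2.80 CP10K in SIRT7-/- mice, without overlap.

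Among the genes of assembly and remodelling, *Lcat*, which esterifies cholesterol on high-density lipoprotein, had 1.14, 2.43 and 1.68 CP10K in WT and 0.431, 0.440 and 0.740 CP10K in SIRT7-/- hepatocyte 1-like cells, a log2 difference of -1.59 (SE 0.376, adjusted p = 0.0660 in limma). *Dgat2*, which makes triglyceride, and *Abca1*, which exports cholesterol to apolipoprotein A-I, differed by -1.39 and -1.33 there. *P4hb*, a subunit of the microsomal triglyceride transfer protein, had 1.29 to 1.78 CP10K in WT hepatocyte 2-like cells and 2.69 to 6.97 CP10K in SIRT7-/- mice, without overlap, a log2 difference of 1.59 (SE 0.400, adjusted p = 0.132 in limma). *Sar1b*, needed to export lipoproteins from the endoplasmic reticulum, differed by -1.26 in these cells.

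Of the receptors, *Sdc1*, *Lsr* and *Cd36* were the widest in hepatocyte 1-like cells, with log2 differences of -1.54, -1.12 and -1.01. For hepatocyte 2-like cells *Scarb1*, the receptor for high-density lipoprotein, and *Sdc1* differed by 0.75 and 0.53, with overlapping genotypes. Of the regulators, *Creb3l3*, a factor known to drive *Apoa4*, had 0.943, 1.44 and 1.72 CP10K in WT and 0.639, 0.193 and 1.09 CP10K in SIRT7-/- hepatocyte 1-like cells, a log2 difference of -1.26 (limma adjusted p = 0.354), while the values in hepatocyte 2-like cells were 3.10 to 3.81 against 4.01 to 5.18 CP10K, a log2 difference of 0.37 (limma adjusted p = 0.775). *Mlxipl* and *Rxra* differed by -0.52 and 0.50. *Rxra*, *Ppara* and *Srebf1* differed by 1.15, 1.02 and 0.97 in hepatocyte 2-like cells, with overlapping genotypes.

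Immediate-early genes, which rise during tissue handling, differed in the class in which *Apoa4* passed. Of 8 tested in hepatocyte 2-like cells, 4 passed, all lower in SIRT7-/- mice: *Fos* (-4.16), *Junb* (-3.47), *Egr1* (-3.15) and *Ier2* (-3.00), with limma adjusted p = 0.0353, 0.00117, 0.0291 and 0.00240. The 9 genes of the list summed to 34.1 to 68.9 CP10K in WT and 9.12 to 18.5 CP10K in SIRT7-/- mice there, and to 3.95 to 5.45 against 4.54 to 5.99 CP10K in hepatocyte 1-like cells, where *Apoa4* differed by a like amount. Their part in the *Apoa4* difference was not tested.

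Across the 46 means of a mouse and class with 20 or more cells, the genes most like *Apoa4* among 10921 were *Elovl2*, *Cyp3a11* and *Cyp4a14*, with Pearson r on log2 levels of 0.856, 0.814 and 0.793. Those most like *Apoe* were *Cd302*, *Igf1* and *Selenop*, with r of 0.907, 0.876 and 0.801. The points share libraries and may share free hepatocyte RNA, and these values describe the libraries only.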

How the data were processed

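The members and gene lists were chosen with earlier results of these data known. The mouse genome build (mm10, GRCm38) and Cell Ranger 6.0.0 are named in the submitters' processing notes. As deposited by the authors, values are the natural log of CP10K + 1. The cells had 500 or more genes and up to 5.01% mitochondrial UMIs. UMIs were worked back, and all 12961041 values above 0 lay within 0.02 of whole UMIs. All columns were used.

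Cells were mapped to mice by barcode ending and clustered in scanpy 1.11.5 with leidenalg 0.10.2 under Python 3.11.15 on 1000 variable genes without 16 apolipoprotein genes, with 50 principal components, 3 neighbors per mouse and a resolution of 0.35. Scrublet marked 0.379% of cells, too few to have worked, so an alternative without the 5% of cells with the most UMIs per class and mouse was added after the data were seen. Stellate-like and S100a8/S100a9-like cells had too few cells in too many mice to be compared.

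Mean CP10K per mouse (20 or more cells) plus 0.05 was taken as log2 and compared with limma 3.58.1 (R 4.3.3, statmod 1.5.0; trend and robust), two-sided, where a gene averaged 0.05 CP10K or more, with Benjamini-Hochberg adjustment over all genes and a threshold of 0.05. Fold changes of low genes are understated by the added 0.05. The study used a hurdle model over cells, and here the mouse was the replicate. The p-values set a difference against the spread between these mice, with variances that limma draws toward a trend over all genes. A fit without trend and robust gave *Apoa4* in hepatocyte 2-like cells the same log2 difference of 2.40, with adjusted p = 0.37 in limma. Alternatives were voom, limma's count method, on summed UMIs, other pseudocounts, filters, scalings and cell sets, the replicate block and leaving out each mouse. The script was tested on simulated data. Named were the 10 members, genes of the lists past the threshold, the 3 widest differences of 4 lists with at least 0.5 CP10K, and the 3 genes most like *Apoe* and *Apoa4*. A gene of the assembly list and a gene of the receptor list that this rule names are not reported here. Promoter sequences are from RefSeq (GRCm38.p6), gene positions from GENCODE M21.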

Additional observations from a re-analysis of the deposited data

How the results depend on the processing

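The *Apoa4* difference in hepatocyte 2-like cells kept its sign under all 21 alternatives (1.67 to 2.89, limma adjusted p from 0.000986 to 0.652) and its call in 10. The call went to 0 members with a pseudocount of 0.01, no filter, a filter of 0.2 CP10K, pooled UMIs, the mean of ln values, median-of-ratios scaling, a fit without trend and robust, and cells with at least 1000 UMIs, and the cause was not tested. Leaving out 1 mouse gave 0 to 1 called members in hepatocyte 2-like and all hepatocyte-like cells, 0 to 2 in hepatocyte 1-like cells, 0 to 3 in T-like, 0 to 2 in dendritic-like, 0 to 4 in endothelial-like, 0 to 1 in plasma B-like cells and 0 to 2 between the ends of the zone score. In hepatocyte 1-like cells voom called 5 members (*Apoa2*, *Apoa4*, *Apoa5*, *Apob* and *Apoe*) among 502 of 8516 genes. Cells with at least 1000 UMIs gave 1 (*Apoa4*) among 90 of 8399. The zone score on cells thinned to 500 UMIs called 1 (*Apoc1*) among 179 of 9823 genes.

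Same-numbered mice did not deviate together (r of -0.16 to 0.13), so the numbers were not taken as pairs. With the replicate block 1 member was called in macrophage-like cells (*Apoa4*), among 143 of 9948 genes. It called 4 in dendritic-like cells, among 61 of 9727 genes, and 2 in endothelial-like cells, among 161 of 10682. *Apoa4* stayed the 1 member called in hepatocyte 2-like cells, and none was called in the hepatocyte 1-like class. No paired analysis was possible for plasma B-like and B-like cells because they share fewer than 2 numbers.

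Log2 differences that changed sign were all uncalled. *Apoa1* became 0.02 in hepatocyte 1-like cells with the mean of ln values, 0.06 in macrophage-like cells with median-of-ratios scaling, 0.11 for the class difference with pooled UMIs and 0.12 with the thinned zone score. *Apob* became -0.04 in hepatocyte 2-like cells and 0.1 in macrophage-like cells with median-of-ratios scaling, and 0.04 in the latter with the mean of ln values. *Apoa5* in all hepatocyte-like cells became -0.03 with pooled UMIs, -0.2 with median-of-ratios scaling, -0.07 with voom and -0.08 with cells of at least 1000 UMIs, and -0.28 in macrophage-like cells with voom. *Apoc1* in macrophage-like cells became 0.06 with median-of-ratios scaling and 0.08 with voom. Leaving out 1 mouse moved *Apoa1* from -0.5 to 0.0 and *Apoc1* from -0.53 to 0.08 in hepatocyte 1-like cells, and *Apoe* from -0.68 to 0.0 in hepatocyte 2-like cells. In all hepatocyte-like cells it moved *Apoa5* from -0.05 to 0.62 and *Apob* from -0.98 to 0.09. Macrophage-like cells gave -0.54 to 0.37 for *Apoa1*, -0.25 to 0.64 for *Apoa5*, -0.62 to 0.51 for *Apob* and -0.1 to 0.69 for *Apoe*. The class difference ranged from -0.51 to 0.14 for *Apoa1*, from -0.17 to 0.68 for *Apoa4* and from -0.31 to 0.06 for *Apoc4*, and the zone difference of *Apoa1* from -0.08 to 0.09. Median-of-ratios scaling moved the median of all genes in hepatocyte 2-like cells by -0.2 and the mean of ln values by -0.19. Mice with few cells of a class limit the precision of every value.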
